A study of Mus musculus with 6 samples.

Results

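Neutrophils and macrophages are the phagocytes that enter or line an inflamed colon, and their most characteristic transcripts can appear in RNA from cells sorted as another type. The genes described here are 36 of the 23268 in the deposited expression table, taken by symbol: 20 known from neutrophils and 16 known from monocytes and macrophages, and all 36 were listed. The tested animals were C57BL/6 mice of 6 to 8 weeks that drank 3% dextran sulfate sodium (DSS), which injures the colonic epithelium, for 6 days. The control mice, of the same strain and age, drank water over the same 6 days. Group 2 innate lymphoid cells (ILC2s), tissue lymphocytes known for type 2 cytokines, were sorted from the colon of both groups and sequenced as full-length cDNA, with 3 DSS and 3 Control libraries. The labels used here give no sort gate and do not say whether a library came from 1 mouse or a pool; the p-values therefore reflect library-to-library spread alone, which may be technical. In such bulk samples, more phagocytes among the sorted cells and more of a transcript per cell cannot be told apart.

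Neutrophils store antimicrobial proteins in granules that are loaded in sequence while the cell matures in the bone marrow. Transcripts of granule proteins such as lactoferrin and cathelicidin peak in immature cells and decline before release, whereas the chemokine receptor Cxcr2 belongs to the mature cell. Macrophages are recognised by the CSF1 receptor, F4/80, Fc receptors, the mannose receptor and the C1q complement chains, while incoming monocytes carry Ly6C. Several of the 36 are less specific: Tyrobp and Fcer1g encode signalling adaptors also used by NK cells and other innate lymphocytes, Lcn2 and Lrg1 are also made by epithelium, and Mxd1, Hdc and Ifitm1 are known outside neutrophils too.

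The 6 libraries held 10096933 to 23375473 fragments in genes. DSS replicate 3 and Control replicate 3, the shallowest of each group, stood apart from the rest. They listed 22153 and 21647 genes above 0, against 15809 to 19290 in the other 4 libraries. DSS replicate 3 gave the highest of the 3 DSS values for 71.9% of the 22701 genes above 0 anywhere, and Control replicate 3 the highest of the Control values for 64.4%. Among the 36 members these counts were 27 and 21. ILC2 markers were abundant in every library: the summed FPKM of 13 of them, Gata3, Il1rl1 and Klrg1 included, was 2917, 2921 and 2690 in DSS replicates 1, 2 and 3 and 3978, 3803 and 3653 in the Control replicates. FPKM is a fragment count scaled to transcript length and to library depth.

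Of the 20 neutrophil genes, Retnlg was the 1 that passed the test over all genes, and none of the 16 monocyte and macrophage genes passed. The test was limma on log2(FPKM + 1), with a Benjamini-Hochberg adjusted p under 0.05 over the 12187 genes whose mean FPKM was at least 1. It called 0.0738% of those genes higher in DSS and 0.148% lower. For 5 neutrophil genes (Retnlg, Lcn2, Pglyrp1, Lrg1 and Ifitm1) and 3 macrophage genes (Tyrobp, Cd14 and C1qb) every DSS library lay above every Control library. That is 8 of 36 or 22.2%, against 4.84% of all genes above 0 and 6.35% of the tested genes. All 8 were among the 21 members tested, and the 15 members not tested all overlapped. The members were chosen with earlier results of these data known, so this share is no measure of the lists. Mxd1 was the 1 member whose DSS values all lay under its Control values, a pattern shown by 5.29% of all genes above 0. The other 27 overlapped. The median log2 change, DSS minus Control, was 0.86 over all 20 neutrophil genes and 0.45 over all 16 macrophage genes, against 0.12 over all genes above 0. Without DSS replicate 3 these medians were 0.50 and 0.17, against −0.073 over all genes above 0. With each library set against the Control mean, the neutrophil median was 0.11, 0.37 and 1.19 in DSS replicates 1, 2 and 3, and −0.18, −0.15 and 0.32 in Control replicates 1, 2 and 3. The macrophage median was 0.29, 0.18 and 0.84 in the DSS replicates, and −0.34, −0.091 and 0.40 in the Control replicates. Control replicate 3 thus lay above DSS replicate 1 for both lists, and above DSS replicate 2 as well for the macrophage genes.

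**Figure D1:**
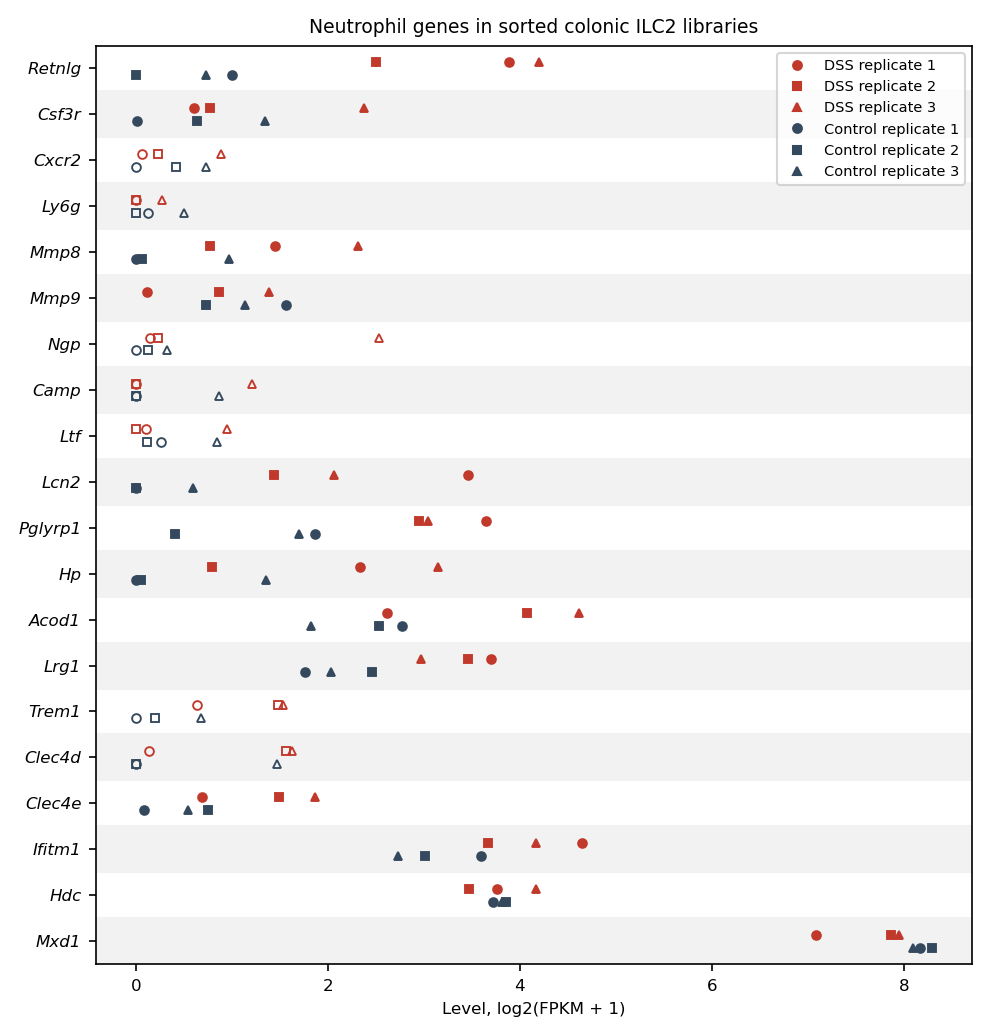
Levels of the 20 neutrophil genes in each library, as log2(FPKM + 1) on the horizontal axis, with DSS in red above Control in dark blue and a symbol for each replicate; open symbols mark genes with a mean FPKM under 1, which were not tested. The DSS points lie to the right of all Control points for Retnlg, Lcn2, Pglyrp1, Lrg1 and Ifitm1, and to their left for Mxd1.

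Retnlg encodes a resistin-like protein secreted by neutrophils in mice. Its FPKM was 13.8, 4.65 and 17.4 in DSS replicates 1, 2 and 3, against 1.01, 0 and 0.657 in Control replicates 1, 2 and 3. All DSS values were above all Control values, and DSS replicate 2 was the lowest of them. These rest on 123, 53 and 104 fragments in the DSS libraries and on 14, 0 and 5 in the Control libraries. Retnlg rose by 2.95 ± 0.46 (SE) on the log2(FPKM + 1) scale (limma adjusted p = 0.0452), with means 21.5-fold apart. The gene lies on chromosome 16 (mm10, 48872621 to 48874496, plus strand). The call was lost without any 1 Control library and without DSS replicate 3: the limma adjusted p was 0.313, 0.314 and 0.162 without Control replicates 1, 2 and 3, and 0.0729 without DSS replicate 3. It was also lost with no filter (0.128), at a pseudocount of 0.1 (0.101) or 5 (0.110), with no trend (0.229) and with voom on the fragment counts (0.419), and it passed in 5 of 19 alternative settings, the looser threshold of 0.1 among them.

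The granule genes did not share 1 pattern. Lcn2 encodes lipocalin 2, which binds bacterial siderophores. Its FPKM was 9.9995, 1.71 and 3.17 in the DSS replicates, against 0, 0 and 0.511 in the Control replicates. The Control libraries held 0, 0 and 9 fragments of it, and 0 fragments allow up to 0.0934 and 0.123 FPKM in Control replicates 1 and 2 (3 fragments per library, counting error only). The DSS values did not overlap these, and DSS replicate 1 was the highest (log2 change 2.12 ± 0.56 SE, limma adjusted p = 0.201). Pglyrp1, a peptidoglycan recognition protein of granules, had 11.5, 6.75 and 7.28 FPKM in the DSS replicates, against 2.65, 0.325 and 2.25 in the Control replicates (log2 change 1.89 ± 0.40 SE, limma adjusted p = 0.132). The groups were again separate. Hp, the gene of the haemoglobin-binding protein haptoglobin, had 4.07, 0.736 and 7.88 FPKM in the DSS replicates, against 0, 0.0419 and 1.57 in the Control replicates. Here Control replicate 3 exceeded DSS replicate 2, so the groups overlapped.

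Mmp8, neutrophil collagenase, had 1.73, 0.709 and 3.96 FPKM in the DSS replicates, against 0, 0.0465 and 0.964 in the Control replicates. The overlap came from Control replicate 3, which exceeded DSS replicate 2 (log2 change 1.16 ± 0.59 SE, limma adjusted p = 0.631). Mmp9, gelatinase B, had 0.0840, 0.820 and 1.62 FPKM in the DSS replicates, against 1.97, 0.657 and 1.20 in the Control replicates. Its highest value was in a Control library and its lowest in DSS replicate 1.

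Camp, Ltf and Ngp, whose transcripts are known from neutrophil precursors in the marrow, were close to 0 in most libraries. Camp, the cathelicidin gene, had 0, 0 and 1.31 FPKM in the DSS replicates, against 0, 0 and 0.823 in the Control replicates. It had 10 fragments in DSS replicate 3 and 8 in Control replicate 3, and none elsewhere. Ltf, the gene of the iron-binding protein lactoferrin, had 0.0729, 0 and 0.938 FPKM in the DSS replicates, against 0.203, 0.0822 and 0.796 in the Control replicates. Ngp, the neutrophilic granule protein gene, had 0.109, 0.170 and 4.78 FPKM in the DSS replicates, against 0, 0.0923 and 0.255 in the Control replicates. Its DSS mean thus rests on DSS replicate 3, with 59 fragments against 2 and 4 in the other DSS libraries. Camp, Ngp and Ltf are neighbours among the members on chromosome 9, with 570 kb and 596 kb between them. Their highest DSS value was in replicate 3 in each case, and so was their highest Control value.

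C/EBP factors are the transcription factors best known for driving granule genes, so the promoters were searched for the letters TTGCNNAA and, on the other strand, TTNNGCAA. Windows from 250 bases before to 50 after the start (RefSeq, build GRCm38.p6) were held for 29 of the 36 members. The motif was in 7 of 18 neutrophil windows and in 1 of 11 macrophage windows, against 12.2% of 27025 genes. A match is a description of the letters and not evidence of binding. The stretches with the match in capitals, 5′ to 3′ on the gene's strand, are shown because the genes that carry the motif differ in their values:
Retnlg (chr16:48872358-48872399, plus strand): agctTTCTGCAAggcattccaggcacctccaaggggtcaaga
Lcn2 (chr2:32387918-32387985, minus strand): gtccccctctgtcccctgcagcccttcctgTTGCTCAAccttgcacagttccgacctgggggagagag
Mmp8 (chr9:7558380-7558428, plus strand): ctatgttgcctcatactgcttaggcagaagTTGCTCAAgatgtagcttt
Ngp (chr9:110419640-110419707, plus strand): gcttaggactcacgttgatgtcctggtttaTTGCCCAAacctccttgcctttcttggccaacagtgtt
Ltf (chr9:111019187-111019254, plus strand): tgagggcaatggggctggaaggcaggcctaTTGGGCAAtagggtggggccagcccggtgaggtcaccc
Ly6g (chr15:75155011-75155066, plus strand): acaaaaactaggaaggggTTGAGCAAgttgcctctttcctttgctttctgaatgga
Clec4e (chr6:123289900-123289967, minus strand): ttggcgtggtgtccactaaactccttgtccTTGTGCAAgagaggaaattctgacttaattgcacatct
Cd68 (chr11:69666176-69666243, minus strand): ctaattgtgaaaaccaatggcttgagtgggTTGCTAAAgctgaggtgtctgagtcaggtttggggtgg

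Retnlg and Lcn2, whose groups were separate, share this motif with Ltf and Ly6g, whose DSS means were below their Control means. Pglyrp1, Lrg1 and Ifitm1 also had separate groups, and their windows held no match. Another motif, GAGGAAG or its complement CTTCCTC, the core bound by ETS factors such as PU.1, was in 6 of 18 neutrophil windows and 5 of 11 macrophage windows, against 15.4% of all genes. Pglyrp1 and Lcn2 carry it, and so does Ly6g.

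The neutrophil surface receptors were low in all libraries, and none had separate groups. Csf3r, the G-CSF receptor gene, had 0.517, 0.703 and 4.21 FPKM in the DSS replicates, against 0.0123, 0.551 and 1.55 in the Control replicates. Cxcr2, the receptor of neutrophil-attracting chemokines, had 0.0438, 0.171 and 0.845 FPKM in the DSS replicates, against 0, 0.333 and 0.665 in the Control replicates. Ly6g, the gene of the antigen most used to sort mouse neutrophils, had 0, 0 and 0.210 FPKM in the DSS replicates, against 0.0909, 0 and 0.414 in the Control replicates. For Ly6g that is 2 fragments over the 3 DSS libraries and 7 over the 3 Control libraries. In all 3 genes the replicate 3 library was the highest of its group.

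The activating receptors also overlapped between the groups. Trem1, which amplifies inflammatory signals, had 0.557, 1.79 and 1.89 FPKM in the DSS replicates, against 0, 0.151 and 0.599 in the Control replicates. Its overlap is narrow, since DSS replicate 1 lay just under Control replicate 3. Clec4d and Clec4e, lectin receptors for mycobacterial glycolipids, are adjacent on chromosome 6 with 6.52 kb between them. Clec4e had 0.611, 1.82 and 2.66 FPKM in the DSS replicates, against 0.0623, 0.681 and 0.454 in the Control replicates (log2 change 0.89 ± 0.55 SE, limma adjusted p = 0.714). Clec4d had 0.101, 1.97 and 2.10 FPKM in the DSS replicates, against 0, 0 and 1.77 in the Control replicates. In both genes DSS replicate 1 was the lowest of the DSS libraries.

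Among the other neutrophil genes, Lrg1 encodes a leucine-rich glycoprotein released by neutrophils and by other inflamed tissue. It had 12.0, 9.99 and 6.82 FPKM in the DSS replicates, against 2.40, 4.49 and 3.10 in the Control replicates (log2 change 1.29 ± 0.28 SE, limma adjusted p = 0.136). The groups were separate and the replicate 3 libraries were not the highest. Ifitm1, an interferon-induced membrane protein gene, had 24.1, 11.7 and 17.0 FPKM in the DSS replicates, against 11.1, 7.10 and 5.66 in the Control replicates (log2 change 1.05 ± 0.31 SE, limma adjusted p = 0.278). Its relatives Ifitm2 and Ifitm3 overlapped between the groups, at 59.4 to 110.2 and 42.2 to 121 FPKM in DSS and 94.4 to 98.3 and 51.6 to 101 FPKM in Control. Reads shared within this family could have been split between its members.

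Acod1 encodes the enzyme that makes itaconate in activated macrophages and neutrophils. Its FPKM was 5.14, 15.9 and 23.5 in the DSS replicates, against 5.84, 4.77 and 2.56 in the Control replicates. DSS replicate 1 lay within the Control range and the other DSS libraries above it (log2 change 1.39 ± 0.47 SE, limma adjusted p = 0.355). Without DSS replicate 1 the log2 change was 1.97 and the limma adjusted p 0.00549, in a fit that called 413 genes in all, against 27 with every library. Without any other library the log2 change ran from 0.97 (without DSS replicate 3) to 1.59 and Acod1 did not pass. Hdc, the histamine-synthesis enzyme gene, had 12.6, 10.1 and 17.0 FPKM in the DSS replicates, against 12.2, 13.5 and 13.1 in the Control replicates. The DSS values lay on both sides of the Control values. Mxd1, a MAX-binding transcriptional repressor, was the most abundant of the 36, with 135, 232 and 246 FPKM in the DSS replicates, against 287, 313 and 272 in the Control replicates (log2 change −0.55 ± 0.26 SE, limma adjusted p = 0.580). It took most of the summed level of the 20 genes, which was 232, 302 and 371 FPKM in the DSS replicates, against 324, 346 and 311 FPKM in the Control replicates.

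A narrower neutrophil list leaves out 7 genes also known from lymphocytes, epithelium or macrophages (Lcn2, Hp, Acod1, Lrg1, Ifitm1, Hdc and Mxd1). Whether the 13 genes kept are confined to neutrophils was not tested. Its 13 genes summed to 29.2, 19.6 and 49.2 FPKM in the DSS replicates, against 5.99, 2.92 and 12.4 FPKM in the Control replicates. Every DSS sum was above every Control sum. The mean ± SD was 32.6 ± 15.1 FPKM in DSS and 7.10 ± 4.83 FPKM in Control (n = 3 each). Retnlg and Pglyrp1 were the 2 highest of the 13 in every DSS library. They were also the 2 of the 13 with separate groups, and the rest overlapped. The separation of the sums thus rests on these 2 genes and does not describe the whole list.

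**Figure D2:**
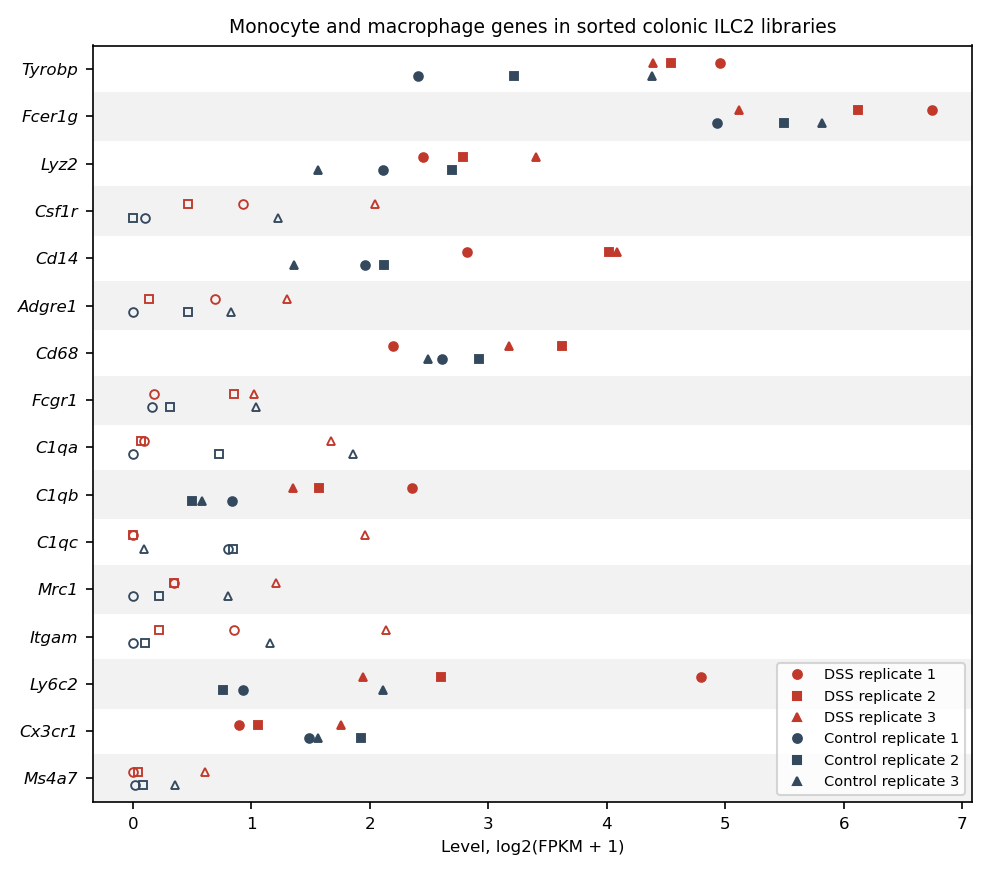
Levels of the 16 monocyte and macrophage genes in each library, as log2(FPKM + 1) on the horizontal axis, with DSS in red above Control in dark blue and a symbol for each replicate; open symbols mark genes with a mean FPKM under 1, which were not tested. The DSS points lie to the right of all Control points for Tyrobp, Cd14 and C1qb, by a narrow margin for Tyrobp.

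The monocyte and macrophage genes began with the adaptors. Tyrobp, the gene of DAP12, had 30.1, 22.2 and 19.9 FPKM in the DSS replicates, against 4.30, 8.31 and 19.8 in the Control replicates (log2 change 1.29 ± 0.43 SE, limma adjusted p = 0.346). The groups were separate only by the small gap between DSS replicate 3 and Control replicate 3. Fcer1g, the Fc receptor γ chain gene, was the most abundant gene of this group, with 106, 68.7 and 33.6 FPKM in the DSS replicates, against 29.5, 44.1 and 55.5 in the Control replicates. The libraries overlapped, and DSS replicate 3 was the lowest of its group for both adaptors.

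Cd14, the lipopolysaccharide co-receptor gene of monocytes and macrophages, gave the smallest p of the 8 tested macrophage genes. Its FPKM was 6.06, 15.2 and 15.99 in the DSS replicates, against 2.89, 3.33 and 1.57 in the Control replicates. The groups were separate, and the DSS libraries held 149, 479 and 265 fragments (log2 change 1.83 ± 0.37 SE, limma adjusted p = 0.118). Without DSS replicate 1, its lowest DSS library, the log2 change was 2.24 and the limma adjusted p 0.00164, in the same fit with 413 genes called. Lyz2, the lysozyme gene of myeloid cells, had 4.46, 5.90 and 9.56 FPKM in the DSS replicates, against 3.32, 5.48 and 1.95 in the Control replicates, with overlap. Its near-identical copy Lyz1 had 1.49 to 7.42 FPKM in DSS and 1.98 to 5.18 FPKM in Control, so how reads were divided between the pair is uncertain. Cd68, a lysosomal glycoprotein gene, had 3.58, 11.3 and 8.05 FPKM in the DSS replicates, against 5.11, 6.56 and 4.63 in the Control replicates. DSS replicate 1 was the lowest of all 6 libraries for Cd68.

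The 3 C1q chains, which assemble together into the first complement component, did not follow each other. C1qb had 4.11, 1.96 and 1.55 FPKM in the DSS replicates, against 0.786, 0.415 and 0.502 in the Control replicates (log2 change 1.11 ± 0.45 SE, limma adjusted p = 0.474). C1qa had 0.0641, 0.0501 and 2.19 FPKM in the DSS replicates, against 0, 0.651 and 2.62 in the Control replicates. C1qc had 0, 0 and 2.88 FPKM in the DSS replicates, against 0.747, 0.797 and 0.0648 in the Control replicates. DSS replicates 1 and 2 held 67 and 41 fragments of C1qb, 1 and 1 of C1qa, and 0 and 0 of C1qc. DSS replicate 3 was the DSS library with all 3 chains above 1 FPKM. The genes lie side by side on chromosome 4 (mm10, 136880129 to 136898803, minus strand), with 3.62 kb and 2.85 kb between them.

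The receptors that define tissue macrophages were low in both groups. Csf1r, the CSF1 receptor gene, had 0.908, 0.377 and 3.12 FPKM in the DSS replicates, against 0.0728, 0 and 1.34 in the Control replicates. Adgre1, the F4/80 gene, had 0.618, 0.0965 and 1.47 FPKM in the DSS replicates, against 0, 0.383 and 0.770 in the Control replicates. Mrc1, the mannose receptor gene, had 0.273, 0.271 and 1.31 FPKM in the DSS replicates, against 0, 0.168 and 0.740 in the Control replicates. In these 3 genes the replicate 3 library was the highest of each group and the groups overlapped.

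Fcgr1, the high-affinity IgG receptor gene, had 0.129, 0.805 and 1.03 FPKM in the DSS replicates, against 0.116, 0.240 and 1.05 in the Control replicates. Ms4a7, a membrane gene of mature macrophages, had 0, 0.0289 and 0.522 FPKM in the DSS replicates, against 0.0119, 0.0625 and 0.281 in the Control replicates. Itgam, the CD11b integrin gene of neutrophils and monocytes, had 0.805, 0.163 and 3.40 FPKM in the DSS replicates, against 0, 0.0704 and 1.23 in the Control replicates. Again the replicate 3 libraries were the highest in each group. Cx3cr1, the fractalkine receptor gene of resident macrophages, had 0.861, 1.08 and 2.38 FPKM in the DSS replicates, against 1.81, 2.80 and 1.96 in the Control replicates (log2 change −0.42 ± 0.39 SE, limma adjusted p = 0.827). It was 1 of 2 macrophage genes with a lower mean on the log2 scale in DSS, C1qa being the other. The annotated span of Cx3cr1 overlaps several genes on both strands. The spans of Trem1, Mxd1, Csf1r, Mrc1 and Itgam also overlap other genes. Whether exons overlap was not examined, so how far reads were shared is uncertain.

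Ly6c2, a surface antigen of inflammatory monocytes, had 26.7, 5.07 and 2.84 FPKM in the DSS replicates, against 0.910, 0.694 and 3.32 in the Control replicates (log2 change 1.84 ± 0.66 SE, limma adjusted p = 0.397). The DSS mean rests on replicate 1, with 1072 fragments, and Control replicate 3 exceeded DSS replicate 3. The close relative Ly6c1 was far more abundant, with 491, 318 and 247 FPKM in the DSS replicates, against 210.1, 163 and 93.3 in the Control replicates. Reads common to both genes could have been assigned to either, so the Ly6c2 values are uncertain. Ccr2, the chemokine receptor gene of the same monocytes, had 17.2, 14.6 and 14.7 FPKM in the DSS replicates, against 22.2, 21.7 and 15.0 in the Control replicates. It belongs to a list of 25 further monocyte and macrophage genes described below. Of these 25, Ccr2 was 1 of 2 with a lower mean log2 level in DSS, and 23 had a higher one.

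A narrower macrophage list leaves out Tyrobp, Fcer1g, Lyz2, Cd14, Itgam and Ly6c2, which neutrophils or lymphocytes also use. Its 10 genes summed to 10.5, 15.97 and 24.5 FPKM in the DSS replicates, against 8.65, 12.1 and 14.0 FPKM in the Control replicates. These sums overlapped, since DSS replicate 1 lay between the Control libraries. The mean ± SD was 17.0 ± 7.03 FPKM in DSS and 11.6 ± 2.69 FPKM in Control (n = 3 each). Over all 16 genes the sums were 185, 133 and 109.8 FPKM in the DSS replicates, against 49.6, 74.1 and 97.4 FPKM in the Control replicates, with every DSS sum above every Control sum, and Fcer1g alone took 33.6 to 106 FPKM of the DSS sums.

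**Figure D3:**
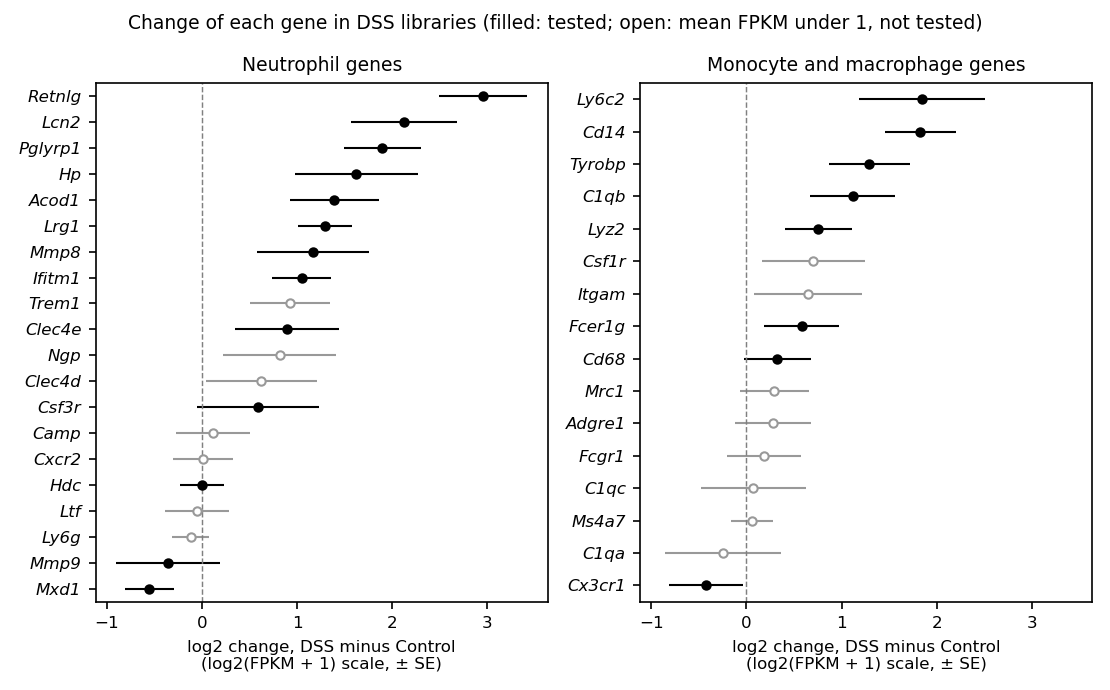
Difference of each gene between DSS and Control (DSS mean less Control mean of log2(FPKM + 1)) with its standard error, for neutrophil genes on the left and monocyte and macrophage genes on the right; filled points were tested and open points had a mean FPKM under 1 (their error comes from a fit with no filter). Retnlg has the highest value, 2.95, and Mxd1 the lowest, −0.55.

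The filter decided which members could be called. Of the 36, 21 had a mean FPKM of at least 1 and were tested, 13 neutrophil and 8 macrophage genes. Of these 21, 7 had a Control mean under 1 and passed the filter through their DSS values: Retnlg, Csf3r, Mmp8, Lcn2, Hp, Clec4e and C1qb. The 15 genes below the filter all overlapped between the groups and never exceeded 4.78 FPKM. In DSS replicate 3 all 15 had their highest DSS value, and 14 of the 15 had their highest Control value in Control replicate 3. Of all genes with a mean FPKM under 1, 87.1% and 81.6% showed these patterns. At an unadjusted limma p under 0.05, 7 of 13 tested neutrophil genes and 4 of 8 tested macrophage genes were higher in DSS and 0 were lower, where 3.57% of all tested genes were higher. These counts are no measure of the lists, since Retnlg, Lcn2, Hp and C1qb are among them and entered the test through their DSS values. The others were Pglyrp1, Acod1, Lrg1, Ifitm1, Cd14, Tyrobp and Ly6c2. By voom on the fragment counts 0 of the 21 passed.

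Without both replicates 3, DSS lay above Control for 10 of 20 neutrophil genes and 8 of 16 macrophage genes, against 24.4% of all genes above 0. Retnlg, Lcn2, Pglyrp1, Lrg1, Ifitm1, Tyrobp, Cd14 and C1qb were among these 18, and the other 10 were Mmp8, Ngp, Hp, Trem1, Clec4d, Fcer1g, Csf1r, Mrc1, Itgam and Ly6c2. These counts too are no measure of the lists, since the members were chosen with earlier results of these data known. Camp, Ly6g and C1qc had no fragments in either remaining DSS library. The narrower sums averaged 24.4 FPKM in DSS and 4.46 FPKM in Control for neutrophil genes, and 13.3 FPKM in DSS and 10.4 FPKM in Control for macrophage genes. With 2 libraries a group, 0 of the 36 members passed (limma adjusted p of Retnlg 0.314).

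Other genes of the same cells were read from lists drawn up beside the 36. Of 25 further neutrophil genes, 11 were tested and 4 passed, all higher in DSS, where 0.0738% of all tested genes passed as higher: S100a9, S100a8, Wfdc17 and Il1b. S100a8 and Wfdc17 had Control means of 0.580 and 0.453 FPKM and entered the test through their DSS values. The list was chosen with earlier results of these data known, so the 4 of 11 are no measure of it. S100a9, a calprotectin subunit gene, had 43.3, 36.02 and 42.9 FPKM in the DSS replicates, against 0.659, 0.978 and 1.502 in the Control replicates (limma adjusted p = 8.45e-05). S100a8, the gene of its partner subunit, had 28.0, 24.1 and 32.2 FPKM in the DSS replicates, against 1.29, 0.453 and 0 in the Control replicates (limma adjusted p = 0.000856). Within the DSS libraries Retnlg stood at 0.319, 0.129 and 0.405 times the FPKM of S100a9. The DSS mean ± SD was 11.95 ± 6.56 FPKM for Retnlg and 40.8 ± 4.10 FPKM for S100a9 (n = 3). By voom none of the 25 passed, with an adjusted p of 0.0697 for S100a9. The early granule gene Mpo overlapped, with 0.267 to 3.89 FPKM in DSS and 0.554 to 1.87 FPKM in Control. The median log2 change of the 25 was 0.46.

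Of 25 further monocyte and macrophage genes, 12 were tested and 0 passed in limma or by voom. Of the 12, 3 had an unadjusted limma p under 0.05, all higher, where 3.57% of all tested genes did. The first was Lst1, a leukocyte transcript, with 14.9, 3.89 and 7.16 FPKM in the DSS replicates, against 2.99, 1.22 and 1.88 in the Control replicates. Ctss, the cathepsin S gene, had 94.8, 68.1 and 59.3 FPKM in the DSS replicates, against 47.6, 45.7 and 44.5 in the Control replicates. Both had separate groups. Plac8 had 121, 41.1 and 31.9 FPKM in the DSS replicates, against 26.3, 23.7 and 32.5 in the Control replicates, and overlapped. This list too was chosen with earlier results of these data known, so the 3 of 12 are no measure of it. The median log2 change of the 25 was 0.38.

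**Figure D4:**
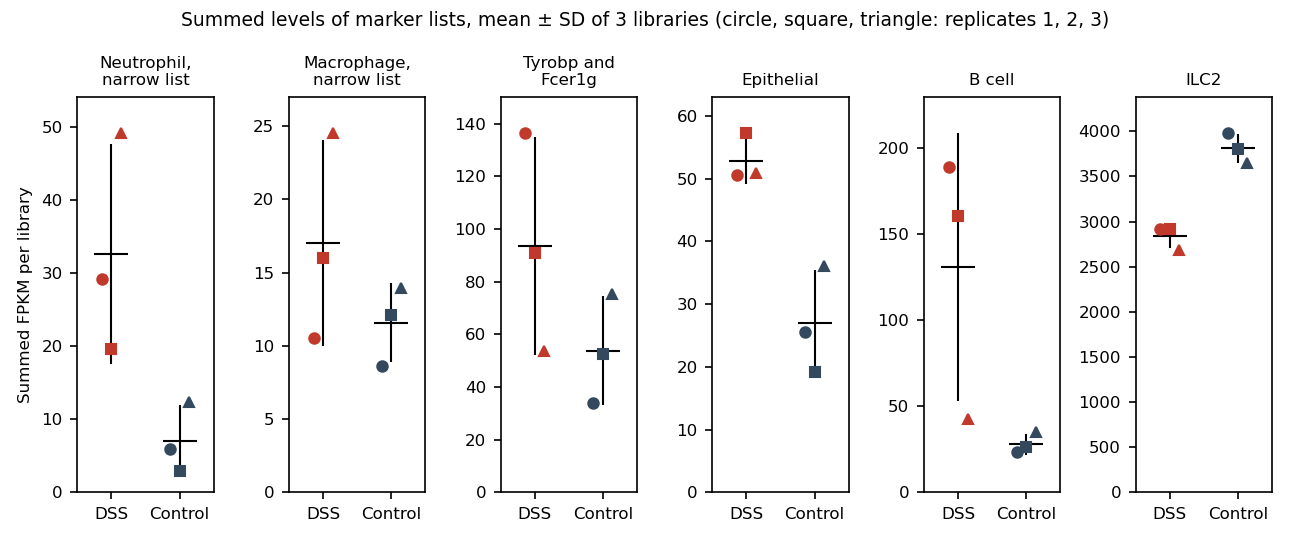
Summed FPKM per library of 6 gene lists, DSS on the left and Control on the right of each panel, each panel with its own axis from 0; symbols mark replicates 1, 2 and 3, and the bar and whisker give the mean and SD of 3 libraries. The narrower neutrophil, epithelial and B cell sums of the DSS libraries lie above the Control sums, the ILC2 sums lie below, and the sums of the narrower macrophage list and of Tyrobp and Fcer1g overlap.

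Markers of other cells also differed in level, and their part in the phagocyte values was not tested. The 10 epithelial markers summed to 50.6, 57.2 and 50.9 FPKM in the DSS replicates, against 25.5, 19.3 and 36.1 FPKM in the Control replicates. Epcam, which defines epithelium, had 19.3, 15.98 and 14.2 FPKM in the DSS replicates, against 10.5, 8.07 and 8.52 in the Control replicates. The 6 B cell and plasma cell markers summed to 189, 161 and 42.6 FPKM in the DSS replicates, against 23.2, 26.2 and 35.0 FPKM in the Control replicates, with Jchain the bulk of each DSS sum. None of these 16 genes passed in limma. An unadjusted limma p under 0.05 was found for 3 of 7 tested epithelial genes and 1 of 3 tested B cell genes. All were higher in DSS, where 3.57% of all tested genes were. These counts are no measure of the lists. Krt8, which is among them, had a Control mean of 0.917 FPKM and entered the test through its DSS values. So did Krt18, Krt20, Car1, Cldn7 and Cd79a among the tested genes. The 9 eosinophil markers summed to 1.77, 1.95 and 10.9 FPKM in the DSS replicates, against 0.410, 0.531 and 5.18 FPKM in the Control replicates.

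Mast cell and basophil, dendritic cell, T cell and stromal lists gave sums that overlapped. The 13 mast cell and basophil markers summed to 24.2 to 59.7 FPKM in DSS and 58.7 to 75.5 FPKM in Control, mostly Kit. Kit was the 1 of the 13 with a lower mean log2 level in DSS, and 12 had a higher one, as did 65.6% of all genes above 0. The sum thus describes Kit and not the list. The 8 dendritic cell markers summed to 6.43 to 21.3 FPKM in DSS and 13.8 to 20.1 FPKM in Control, the 8 T cell markers to 22.1 to 62.7 FPKM in DSS and 24.4 to 35.4 FPKM in Control, and the 9 stromal and endothelial markers to 10.8 to 32.9 FPKM in DSS and 19.6 to 36.2 FPKM in Control. No gene of these 4 lists passed in limma or by voom, where 4, 3, 6 and 6 genes were tested in that order. An unadjusted limma p under 0.05 was found for 5: Mcpt8, higher in DSS, and Kit, Zbtb46, Xcr1 and Pecam1, lower. At that threshold 3.57% of all tested genes were higher. The share of tested genes that were lower was not counted, so Kit, Zbtb46, Xcr1 and Pecam1 have no share to be set against. Mcpt8, a basophil protease gene, had 1.84, 2.98 and 2.62 FPKM in the DSS replicates, against 0, 0 and 0.908 in the Control replicates, with every DSS value the higher. Its Control mean was 0.303 FPKM, and Mcpt8 entered the test through its DSS values. The dendritic cell genes Zbtb46 and Xcr1 were separate in the other direction. They were the 2 of the 8 dendritic cell markers with a lower mean log2 level in DSS. The other 6 had a higher one, as did 65.6% of all genes above 0. Among these 6, Flt3, which was not tested, had every DSS value above every Control value. The 2 lower genes thus do not describe the dendritic cell list. Zbtb46 had 1.48, 3.59 and 5.32 FPKM in the DSS replicates, against 8.36, 9.82 and 9.44 in the Control replicates, and Xcr1 had 0.989, 1.79 and 2.91 FPKM in the DSS replicates, against 5.23, 8.13 and 5.73 in the Control replicates. Kit and the endothelial gene Pecam1 also had every DSS value under every Control value. Of the 13 ILC2 markers, Il5 passed, lower in DSS, where 0.148% of all tested genes passed as lower. For 7 of the 13 the groups were separate with DSS the lower, a pattern shown by 5.29% of all genes above 0.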

How the data were processed

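The authors deposited FPKM values for 23268 genes by symbol, with 1 column per library; per the submitters' processing notes, cutadapt 1.9, HISAT2 2.2.1 and mm10 were used, and the counting tool is not given in the sources used here. Per the labels' protocols, SMART-Seq HT and Nextera XT kits were used, which do not mark the strand. Groups came from the sample titles. Values of a gene step by whole multiples, so fragments were recovered (tolerance 0.001) for 22701 of 22701 genes above 0. The implied gene length equalled the longest GENCODE M21 transcript for 94.8% of 20929 matched genes, 716 of them after scaling fragments up by a common factor, Camp, Cxcr2 and Adgre1 included.

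Genes were tested with limma 3.58.1 (in R 4.3.3, eBayes with trend, two-sided) on log2(FPKM + 1), which understates changes of low genes. Fits and recovery were tested on simulated data. The members, lists and motifs were chosen with earlier results of these data known. All 36 members are named, and of the other lists some of the genes with the smallest p or that passed. Mpo, Ccr2, Epcam, Jchain, Kit, Flt3 and relatives of members were added after their values were seen. Same-numbered libraries deviated together (correlations 0.189, 0.262 and 0.545), each over 0.1, the value set for pairing; this comes from the data, since the labels do not say what a number shares. The printed p-values come from the fit without a replicate block, which was an alternative. Control replicate 1 correlated more with DSS replicate 2 (0.345). Alternatives covered pseudocount, filter, scaling, fit options, block, voom and left-out libraries. Python 3.11.15, pandas 2.3.3 and matplotlib 3.10.9 were used.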

Additional observations from a re-analysis of the deposited data

How the results depend on the processing

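Of the neutrophil members, 0 passed with a pseudocount of 0.1 or 5, no filter, a mean FPKM of at least 5, equal totals, quantile normalization, no trend, robust estimation, voom, or without both replicates 3. The Retnlg limma adjusted p was 0.00935 with the replicate block, where it passed, and ran to 0.419 (voom), with 0.0502 under robust estimation. Leaving out 1 library gave 0 to 2 neutrophil and 0 to 1 macrophage members called; Acod1 and Cd14 passed without DSS replicate 1, where 413 genes were called in all, and, Retnlg apart, the other 33 members passed in no setting. The genes called over all genes numbered 27, and 14 with equal totals, 13 with median-of-ratios scaling, 4 with no trend, 5 without both replicates 3, 53 at an adjusted p under 0.1, 22 with the replicate block, and 4 (without Control replicate 1) to 413 (without DSS replicate 1) with 1 library left out. The median log2 change of the neutrophil members was 1.54 at a pseudocount of 0.1 and 0.29 at 5; that of the macrophage members was 0.86 at 0.1 and 0.23 at 5. Leaving out 1 library gave 0.50 to 1.12 for neutrophil and 0.17 to 0.58 for macrophage members, both lowest without DSS replicate 3. The median over all genes above 0 was −0.073 in that fit. The macrophage median was 0.26 without both replicates 3 and 0.23 on the narrower list. Hdc was the 1 tested member whose direction turned, to −0.053 (equal totals), −0.022 (median-of-ratios), −0.017 (voom) and −0.17 (without both replicates 3), and it ran from −0.18 (without DSS replicate 3) to 0.17 (without DSS replicate 2) with 1 library left out. The block changed no other member's call. The cause of these shifts was not tested. Genes with a mean FPKM under 1 were left out of the main test, and fragments per FPKM depend on gene length and depth.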
